A study of Mus musculus with 5 samples.

Results

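The genes described here are 10 transcription factors at the core of the hematopoietic stem cell (HSC) network: Tal1, Lyl1, Lmo2, Gata2, Runx1, Erg, Fli1, Mecom, Hlf and Gfi1. They were chosen by name, and each was read by every Affymetrix probe set annotated to that gene and to no other. This gave 21 of the 45037 probe sets tested, and the 10 genes are among 18193 that have a probe set of their own. Runx1 has 6 of the 21 probe sets, Mecom has 3, Gata2, Erg, Fli1 and Hlf have a pair each, and Tal1, Lyl1, Lmo2 and Gfi1 have 1.

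In blood stem and progenitor cells these factors bind many of the same enhancers and promoters, including each other's, and so form a densely connected circuit. Tal1 and Lyl1 are related basic helix-loop-helix proteins, and Lmo2 is the LIM domain protein that bridges them to Gata2. Runx1 binds DNA with its partner Cbfb, and Erg and Fli1 are Ets factors. Mecom (Evi1), the leucine zipper factor Hlf and the repressor Gfi1 are needed for the maintenance or quiescence of HSCs in mice.

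Transcript levels were measured on 5 arrays, 2 with RNA from Atxn1L-null HSCs and 3 with RNA from WT HSCs, all from C57Bl/6 mice. The labels give an age of 6 to 8 weeks. The null mice are homozygous for a null allele of Atxn1L (Atxn1L-/-), and all cells were sorted the same way, as side population cells without lineage markers that carry c-Kit, Sca-1 and CD150. HSCs were pooled for each array and their RNA was amplified before labeling, and since the sources used here do not give the mice in each pool, the spread between arrays is that of pools.

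All values are log2 GCRMA values, and a difference is null minus WT on that scale. Atxn1l itself read 3.08 and 3.99 in null HSCs, against 6.80, 6.69 and 4.98 in WT HSCs, on its probe set with the highest mean (1435921_at). Among HSC markers, the protein C receptor gene Procr read 13.23 and 13.54 in null HSCs and 13.55, 13.64 and 13.54 in WT HSCs, and Kit 7.87 and 8.12 against 8.39, 8.28 and 8.12. Slamf1, which encodes the sort marker CD150, read only 3.89 ± 0.03 in null HSCs and 3.92 ± 0.07 in WT HSCs (SD, n = 2 and 3), and none of the 8 HSC markers measured passed the criterion given below or had a probe set at an unadjusted limma p under 0.05. For other cell types 7 lists held 49 measured genes. A mean of 5 was reached by 16 of them in either genotype, and none passed the criterion, with 0 of their probe sets at an unadjusted limma p under 0.05. The RNA of the genotypes did differ in the Gapdh control probe sets. Their 3′ value exceeded their 5′ value by 7.33 and 7.21 in null HSCs and by 5.89, 6.02 and 5.92 in WT HSCs. For beta-actin the excess was 7.43 and 7.28 in null HSCs and 6.71, 6.60 and 6.40 in WT HSCs. Which end of its transcript a probe set of the 10 factors or of the network genes below reads is not known from the files. The part of this difference in their values was not tested. It cannot be told apart from genotype on these arrays, since the excess did not overlap between genotypes.

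To ask whether loss of Atxn1L shifted the core factors, all 45037 probe sets were fitted with limma and called where p did not exceed 0.05 and the fold reached 1.5. No probe set of the 10 genes passed, higher or lower, where 2.38% of all probe sets did. At the p alone, 1 of the 21 passed (4.76%), a probe set of Fli1, where 5.59% of all probe sets did. The lowest adjusted p among the 21, Benjamini-Hochberg over all probe sets, was 0.284 and the next 0.914, both for Fli1, and the others were at 1.0. Their median difference was 0.0044, with 11 positive and 10 negative, and that of all probe sets was -0.0025. Without dim probe sets the median was -0.15 for the 13 that remained, against 0.0092 for all probe sets as bright. In pools of cells, fewer cells of a type and less RNA per cell cannot be told apart.

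A p above the threshold does not show that levels were alike, so the intervals matter here. Of the 21 probe sets, 13 were bright, with a mean of 5 or more in either genotype. For 4 of these 13 (30.8%), both of Gata2, 1 of Erg and 1 of Hlf, the 95% interval of the difference lay wholly within a 1.5-fold change, where 29.6% of all probe sets this bright had such an interval. For the other 9 a 1.5-fold change in at least 1 direction was not excluded at this number of arrays. The 8 dimmer probe sets lay between 2.04 and 4.99 in all arrays, where GCRMA compresses differences, so a narrow interval there says little.

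**Figure D1:**
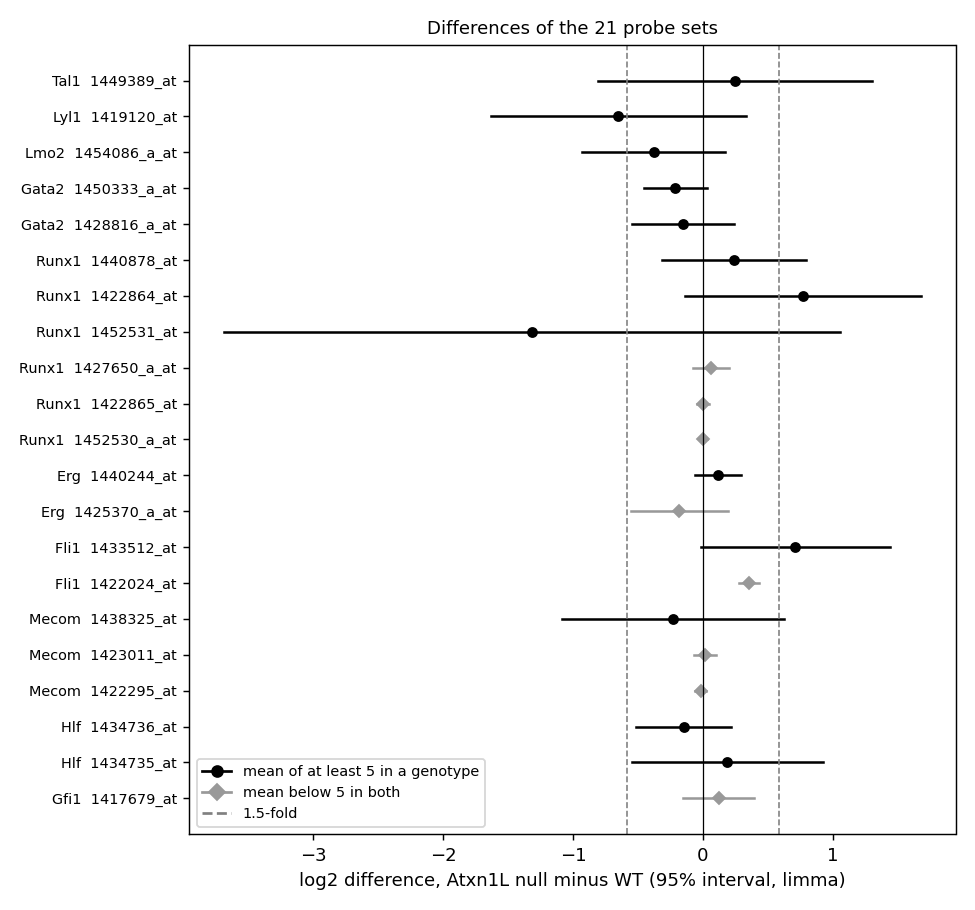
Log2 difference, Atxn1L null minus WT (horizontal axis), with its 95% limma interval for each of the 21 probe sets (vertical axis), in black where the mean reached 5 in a genotype and in grey where it was lower. Dashed lines mark a 1.5-fold change, and the brighter Fli1 probe set has an interval of -0.01 to 1.44.

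For 8 of the 21 probe sets (38.1%) every null array lay on the same side of every WT array, 5 of them higher and 3 lower in null HSCs, where this held for 14.2% of all probe sets. These shares are not of like brightness. Among bright probe sets it held for 6 of the 13 (46.2%), and for 4275 of all 12936. Some of the gaps among the 8 were minute. The lower null value of Gfi1 exceeded the highest WT value by 0.0025, and that of Erg by 0.01. With 2 arrays against 3, an exact permutation test cannot give a p below 0.1.

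**Figure D2:**
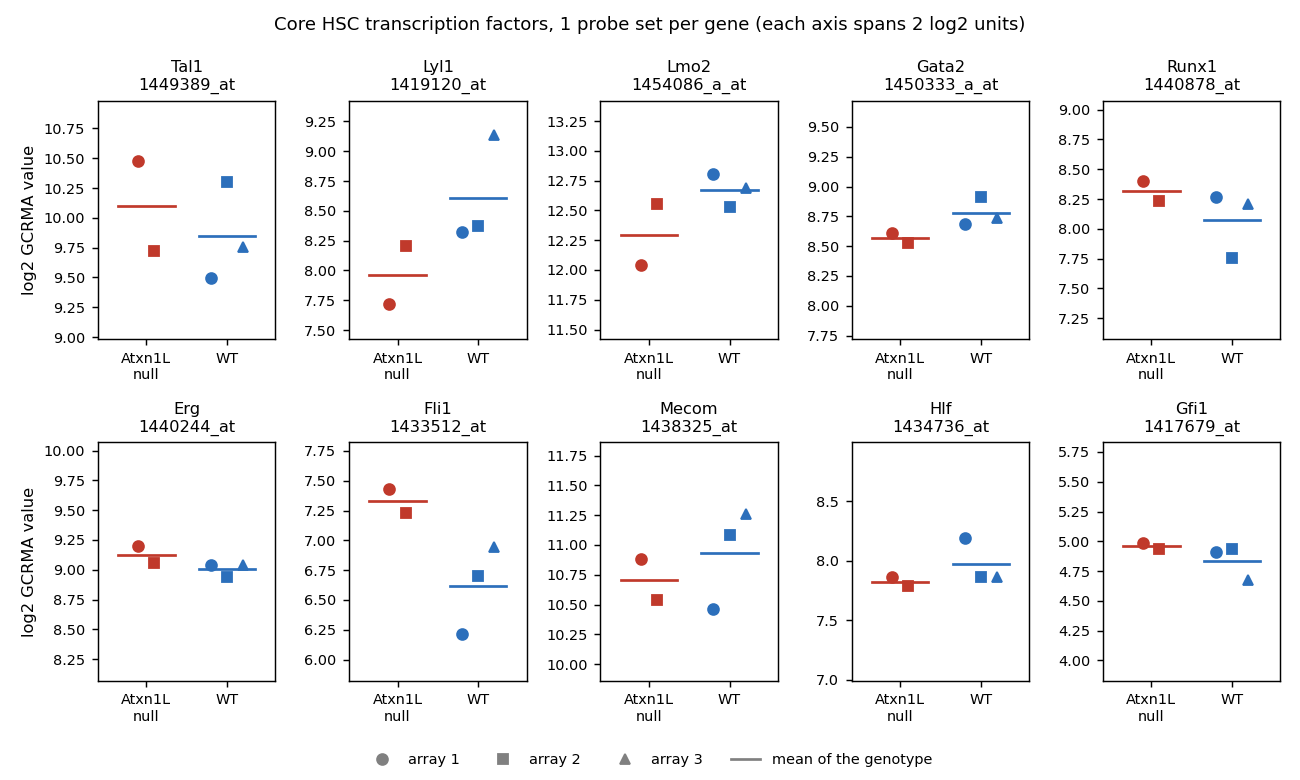
Log2 GCRMA value (vertical axis, each spanning 2 units) of every array for the probe set with the highest mean of each of the 10 genes, Atxn1L null on the left and WT on the right, with a bar at the mean. The null arrays of Fli1, at 7.43 and 7.23, lie above its WT arrays, those of Lyl1, at 7.72 and 8.21, lie below, and those of Tal1 fall on both sides of the WT mean.

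Of Tal1, its relative Lyl1 and the bridging protein Lmo2, Lyl1 showed the lower values in null HSCs, Lmo2 leaned the same way and Tal1 did not. Lyl1, which shares functions with Tal1 in adult HSCs, read 7.72 and 8.21 in null HSCs and 8.32, 8.38 and 9.14 in WT HSCs (1419120_at). The groups did not overlap, but the nearest values were 8.21 and 8.32 and the third WT array stood above the other two. The difference was -0.65 (standard error 0.34, 95% interval -1.63 to 0.33), and without the third WT array it was -0.39 and without the first null array -0.40.

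Lmo2, the bridging protein, read 12.04 and 12.55 in null HSCs and 12.80, 12.52 and 12.69 in WT HSCs (1454086_a_at). The first null array alone lay below all WT arrays, while the second fell among them. The difference was -0.38 (standard error 0.19, interval -0.93 to 0.17). Without the second null array it was -0.63 and passed the criterion, and without the first it was -0.12.

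Tal1, also called Scl, read 10.48 and 9.72 in null HSCs and 9.49, 10.30 and 9.76 in WT HSCs (1449389_at). The SD between pools was 0.54 in null HSCs and 0.41 in WT HSCs, larger than the difference of 0.25 between genotypes (standard error 0.37, interval -0.81 to 1.31). Without the first null array the difference was -0.13, and on dropping each other array it lay between 0.07 and 0.63. The interval takes in changes of more than 1.5-fold in both directions.

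Gata2, the zinc finger factor that keeps HSCs and early progenitors alive and proliferating, was slightly lower on both of its probe sets, within narrow limits. The brighter probe set (1450333_a_at) read 8.61 and 8.53 in null HSCs and 8.69, 8.92 and 8.73 in WT HSCs, without overlap. Its difference was -0.21 (standard error 0.08, interval -0.45 to 0.03), a fold of 1.16. The other (1428816_a_at) read 6.69 and 6.51 in null HSCs and 6.54, 6.81 and 6.90 in WT HSCs, a difference of -0.15 (interval -0.55 to 0.24) that lay between -0.26 and -0.06 on dropping single arrays. Neither interval reached a 1.5-fold change.

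Runx1 is the factor that drives the emergence of HSCs from hemogenic endothelium and later restrains their expansion. Its probe sets had differences of either sign, and the interval of each took in 0. The brightest (1440878_at) read 8.40 and 8.23 in null HSCs and 8.26, 7.75 and 8.21 in WT HSCs, with overlap and a difference of 0.24 (standard error 0.19, interval -0.31 to 0.79). Without the second WT array it was 0.08, without the first null array 0.16, and with array weights 0.56. The second (1422864_at) read 7.21 and 6.39 in null HSCs and 6.29, 5.99 and 5.80 in WT HSCs, without overlap. Its difference was 0.77 (standard error 0.32, interval -0.14 to 1.68), most of it from the first null array. Without the second null array it was 1.18 and passed the criterion, and without the first it was 0.36. It also passed with a variance trend, with array weights or without dim probe sets, with values given in the closing section.

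The third Runx1 probe set (1452531_at) went the other way. It read 4.30 and 4.30 in null HSCs and 7.05, 4.73 and 5.06 in WT HSCs, a difference of -1.31 that came largely from the first WT array (standard error 0.83, interval -3.69 to 1.06). Without that array the difference was -0.60, past the criterion, from values near the dim end of the scale. The other 3 probe sets read 3.73 to 3.88, 2.51 to 2.55 and 2.04 to 2.05 over all 5 arrays, and their differences were at most 0.06.

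**Figure D3:**
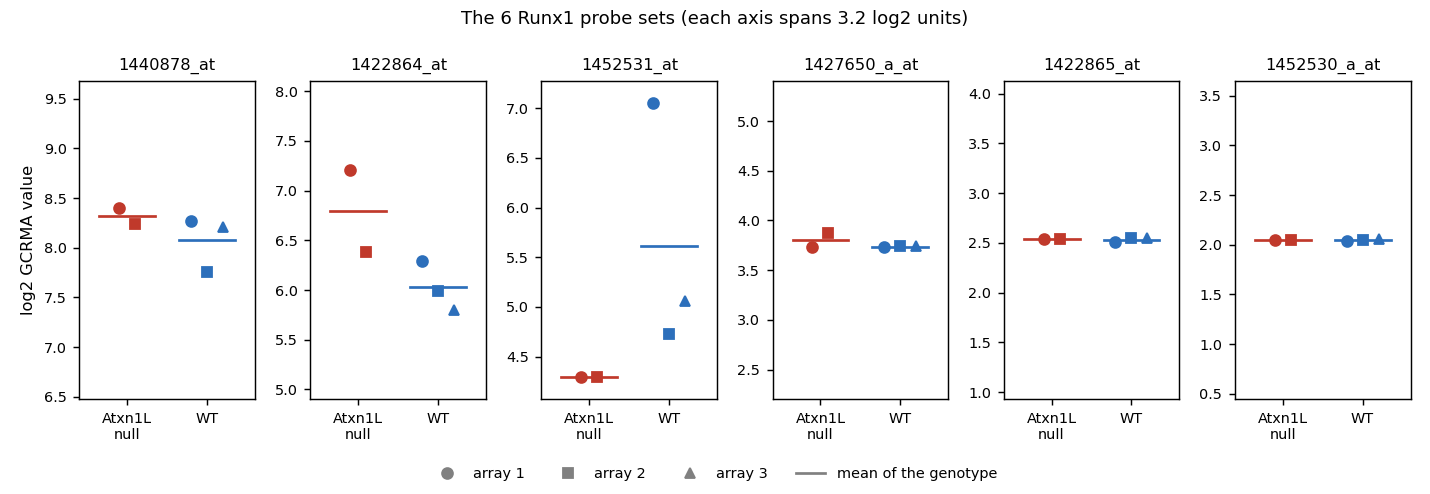
Log2 GCRMA value (vertical axis, each spanning 3.2 units) of the 6 Runx1 probe sets in every array, Atxn1L null on the left and WT on the right, with a bar at the mean. The null arrays of 1422864_at lie above its WT arrays and those of 1452531_at lie below, where the first WT array stands at 7.05.

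Runx1 is transcribed from a distal and a proximal promoter, which give proteins with different N-termini. The annotation does not say which transcripts a probe set reads. Both promoter windows are shown because the brighter probe sets of this gene had differences of opposite sign. The interval of each took in 0, so these signs cannot be set against each other. They are 300 bases each, from RefSeq with the build GRCm38.p6, with 250 bases before and 50 after the annotated start, on the minus strand. Capitals mark matches on either strand to the letters TGTGGT, bound by Runx factors, AGATAA, bound by GATA factors, and CCGGAA, bound by Ets factors.
Runx1 distal, chr16:92826025-92826324: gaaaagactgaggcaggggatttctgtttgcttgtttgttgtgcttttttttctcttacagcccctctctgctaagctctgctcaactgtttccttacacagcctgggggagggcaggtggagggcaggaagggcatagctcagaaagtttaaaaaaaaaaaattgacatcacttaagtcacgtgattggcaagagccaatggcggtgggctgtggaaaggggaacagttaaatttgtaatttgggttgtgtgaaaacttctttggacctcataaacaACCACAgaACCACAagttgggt
Runx1 proximal, chr16:92697280-92697579: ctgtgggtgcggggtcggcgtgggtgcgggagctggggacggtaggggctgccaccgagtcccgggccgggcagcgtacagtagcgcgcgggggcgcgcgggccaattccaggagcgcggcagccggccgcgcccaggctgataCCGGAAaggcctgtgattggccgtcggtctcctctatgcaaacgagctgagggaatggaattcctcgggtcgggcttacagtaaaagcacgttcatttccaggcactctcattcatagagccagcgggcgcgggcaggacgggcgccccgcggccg
The distal window held 2 Runx matches, close to each other just past the start, and the proximal window 1 Ets match. Of the 10 genes 8 matched the promoter table, with 15 windows. A Runx match was found in 1 of these 15, a GATA match in 2 and an Ets match in 4, where the shares over all 32851 windows of the table were 16.8%, 11.2% and 14.9%. These matches are letters in a window and not measured binding.

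The Ets factors Erg and Fli1 both had higher values in null HSCs on their brighter probe sets, with a clear size only for Fli1. Fli1, which acts in HSCs, megakaryocytes and endothelium, read 7.43 and 7.23 in null HSCs and 6.21, 6.70 and 6.94 in WT HSCs (1433512_at). Both null arrays stood above all WT arrays by at least 0.29. The difference was 0.71, a fold of 1.64, and just missed the criterion by its p (standard error 0.26, interval -0.01 to 1.44, limma adjusted p = 0.914). Without the third WT array it was 0.88 and passed, and with any other single array left out it did not, at 0.51 at the least. It passed with a variance trend, array weights, median centring or without dim probe sets. With renewed quantile normalization, without probe sets prone to cross-hybridization or with the replicate number as a block it did not.

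The other Fli1 probe set (1422024_at) was dim but differed in the same direction. It read 3.71 and 3.78 in null HSCs and 3.39, 3.37 and 3.40 in WT HSCs, and both null arrays stood clear of the 3 closely spaced WT arrays. Its difference was 0.36 (standard error 0.03, interval 0.28 to 0.43, limma adjusted p = 0.284), under the required fold, and stayed between 0.32 and 0.39 on dropping each array.

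Markers of megakaryocytes and endothelium, which also express Fli1, overlapped between genotypes. The log2 of the summed signal of the 6 megakaryocyte genes was 11.57 to 11.98 in null HSCs and 11.69 to 11.97 in WT HSCs, and 2 of the 6 were bright. Pf4 read 11.44 and 10.46 in null HSCs and 11.29, 10.85 and 10.84 in WT HSCs, and Itgb3 10.24 and 10.61 in null HSCs and 10.48, 10.44 and 10.86 in WT HSCs, while Ppbp lay at 2.31 to 2.41 in every array. That of the 8 endothelial genes was 7.74 to 8.04 in null HSCs and 7.86 to 8.01 in WT HSCs, but only 1 of the 8, Egfl7, was bright. Cdh5 and Pecam1 read 2.31 to 2.36 in every array on the brightest probe set of each, near the floor. That of the 5 T cell genes was 4.89 to 4.90 in null HSCs and 4.87 to 4.91 in WT HSCs. The 5 B cell genes gave 6.90 to 6.91 in null HSCs and 6.69 to 6.82 in WT HSCs, higher in the null arrays by little, and their part in the Fli1 values was not tested. The sums overlapped for mast cell and basophil genes (8.58 to 8.67 in null HSCs, 8.35 to 9.54 in WT HSCs) and for granulocyte and monocyte genes (14.86 to 15.58 in null HSCs, 14.75 to 15.60 in WT HSCs). For erythroid genes they were 12.05 to 12.13 in null HSCs and 12.13 to 12.30 in WT HSCs. Only 1 of the 6 erythroid genes (Car2), 1 of the 5 B cell genes (Cd79b) and 0 of the 5 T cell genes were bright. The erythroid and B cell sums thus rest largely on 1 gene each, and the T cell sum on values near the floor.

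Erg, the Ets factor needed for HSC maintenance, read 9.20 and 9.06 in null HSCs and 9.04, 8.94 and 9.04 in WT HSCs (1440244_at). The difference of 0.12 (standard error 0.06, interval -0.06 to 0.29) was small and its interval excluded a 1.5-fold change. It was 0.05 without the first null array and 0.19 without the second. The other probe set (1425370_a_at) was dim, at 2.91 and 3.07 in null HSCs and 3.38, 3.06 and 3.07 in WT HSCs, a difference of -0.18 (interval -0.56 to 0.19). Whether Fli1 and Erg differ from each other in their response was not tested.

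Mecom, Hlf and Gfi1, the factors tied to HSC maintenance and quiescence, overlapped between genotypes or were separated by next to nothing. Mecom read 10.88 and 10.54 in null HSCs and 10.46, 11.09 and 11.26 in WT HSCs (1438325_at), a difference of -0.23 (standard error 0.30, interval -1.08 to 0.63). Its spread over the WT pools, an SD of 0.42, was larger than the difference. Without the first WT array the difference was -0.46, without the second null array -0.05, and on dropping each other array it lay between these. The remaining Mecom probe sets read 2.81 to 2.89 and 2.28 to 2.32 over all arrays, near the floor.

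Hlf, which marks long-term HSCs in mice, read 7.86 and 7.79 in null HSCs and 8.19, 7.86 and 7.86 in WT HSCs (1434736_at), a difference of -0.15 (interval -0.52 to 0.22). The first null array and the third WT array had the identical value. The second probe set (1434735_at) had the opposite sign, with 6.20 and 5.93 in null HSCs and 6.29, 5.72 and 5.61 in WT HSCs, a difference of 0.19 (interval -0.54 to 0.92). Without the first WT array the difference was -0.04 on 1434736_at, and on 1434735_at it lay between 0.05 and 0.40 on dropping single arrays. Both intervals took in 0, so the signs of the 2 probe sets cannot be set against each other.

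Gfi1, which encodes a zinc finger repressor that limits cycling of HSCs, read 4.99 and 4.94 in null HSCs and 4.91, 4.93 and 4.67 in WT HSCs (1417679_at). The difference was 0.12 (standard error 0.10, interval -0.15 to 0.40). All 5 values lay within 0.31 of each other, and without the third WT array the difference was 0.04. This probe set is among the dim ones, with means of 4.96 in null HSCs and 4.84 in WT HSCs, so its narrow interval says little.

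The profiles of Lyl1, Fli1 and Tal1, which had the widest range over the 5 arrays on the probe set with the highest mean, were compared with those of all other genes with a mean of 5 or more in either genotype. Likeness was the root mean squared difference of the log2 values after each probe set had been centred on its own mean. The genes most like Lyl1 were Cxcl16 (0.06) and Tbc1d1 (0.06), those most like Fli1 were Tasor (0.08) and Acpp (0.08), and those most like Tal1 were Mycbp2 (0.03) and Vim (0.07). None of the other core factors was among them. Only the 2 nearest of 7236 bright genes were kept for each, so this says little about whether the core factors vary together.

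The wider network was read through 62 further genes in 4 lists, of which 58 had a probe set of their own. Of these, 3 genes were called higher (5.17%) and 4 lower (6.90%) in null HSCs, where 2.30% of all genes were called higher and 2.21% lower. The lists were drawn up with earlier results of these data known, so these shares are not an independent test of the network. The median difference over the 130 probe sets of these genes was 0.0037. Of the partners, proteins that bind a core factor, 2 of 17 fell and none rose. Of the relatives, genes of the same factor families, 2 of 17 rose and 1 fell. Of other transcription factors of stem and progenitor cells 1 of 13 rose and 1 fell, and of 11 known targets none passed in either direction, with 1 of their 18 probe sets at an unadjusted limma p of at most 0.05. Bright probe sets were 25 of 47 for partners, 15 of 33 for relatives, 15 of 32 for other factors and 12 of 18 for targets. Over the whole array 12936 of 45037 were bright, so the shares of all genes given above are not of like brightness. Without dim probe sets, 9 network probe sets were called, and 1236 of the 12936 overall.

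**Figure D4:**
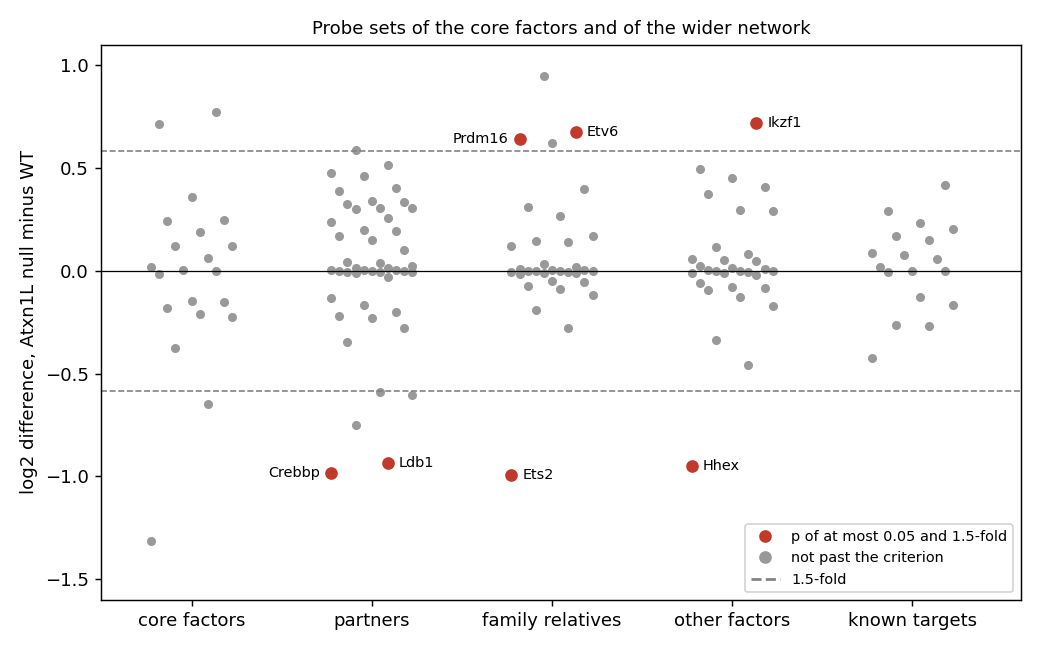
Log2 difference, Atxn1L null minus WT (vertical axis), of every probe set of the core factors and of the 4 lists of network genes (horizontal axis), in red and named where the criterion was passed and in grey otherwise. Dashed lines mark a 1.5-fold change, and Ldb1 lies at -0.94 while the core factors have no red point.

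Ldb1, the adaptor that dimerizes and so joins complexes of Lmo2, Tal1 and Gata2, fell by 0.94, a fold of 1.91. It read 6.65 and 6.77 in null HSCs and 7.81, 7.64 and 7.48 in WT HSCs (1452024_a_at), a gap larger than the spread within either genotype. The standard error was 0.12 and the interval -1.27 to -0.60 (limma adjusted p = 0.358). The call held with any 1 array left out, at -1.02 to -0.85. This is the only probe set of Ldb1. The part in its value of the RNA difference seen in the control probe sets was not tested. The coactivator gene Crebbp, which works with several of the factors, fell on 1 of its 4 probe sets (1434633_at), with 6.69 and 6.75 in null HSCs and 7.97, 7.35 and 7.80 in WT HSCs, a difference of -0.98 (limma adjusted p = 0.599). Its brightest probe set (1435224_at) read 9.45 and 9.75 in null HSCs and 9.98, 9.62 and 10.03 in WT HSCs, a difference of -0.28 that missed the criterion. Without the first null array the Crebbp difference was -0.95 and without the second -1.01, and the call ended in both cases.

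Among the relatives, the Ets repressor gene Etv6 (Tel), needed for the survival of adult HSCs, rose by 0.67, with 9.21 and 8.76 in null HSCs and 8.44, 8.23 and 8.27 in WT HSCs (1434880_at, limma adjusted p = 0.654). Dropping the first null array (0.45) ended its call, as did dropping WT replicate 2 (0.63) or WT replicate 3 (0.65). The Ets gene Ets2 fell by 0.99, with 6.01 and 6.42 in null HSCs and 7.64, 6.90 and 7.09 in WT HSCs (1416268_at, limma adjusted p = 0.764), and dropping either null array (-0.79 and -1.20) or the third of WT HSCs (-1.05) ended its call. Prdm16, the relative of Mecom that maintains HSCs, rose on 1 of its 4 probe sets (1440870_at), with 7.47 and 6.89 in null HSCs and 6.48, 6.42 and 6.71 in WT HSCs, a difference of 0.64 (limma adjusted p = 0.867). Its brightest probe set (1440745_at) differed by 0.0047. The call on 1440870_at held when the second null array was dropped and ended when any other array was, with differences of 0.35 to 0.73.

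Of the other factors, the homeobox gene Hhex fell by 0.95, with 7.67 and 8.32 in null HSCs and 8.71, 8.75 and 9.38 in WT HSCs (1423319_at, limma adjusted p = 0.891). The upper end of its interval lay just under 0. The call held when the second null array was dropped and ended when any other array was, with differences of -1.07 to -0.62. It also ended with renewed quantile normalization (-0.91). Ikzf1 (Ikaros), a zinc finger factor of lymphoid and stem cells, rose by 0.72, with 7.62 and 7.10 in null HSCs and 6.69, 6.44 and 6.79 in WT HSCs (1436312_at, limma adjusted p = 0.764). Here too the call ended on dropping any array other than the second null one, with differences of 0.46 to 0.79. Of the targets with the highest mean, the CDK inhibitor gene Cdkn1a read 10.52 and 11.28 in null HSCs and 11.11, 10.59 and 11.39 in WT HSCs (1424638_at), and the integrin gene Itgb3 had the values given above among megakaryocyte genes (1455257_at).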

How the data were processed

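The authors processed the array intensities using GCRMA (version not given in the sources used here). The deposited table has these log2 values, background corrected, quantile normalized and summarized per probe set. That they are base 2 was inferred from their range. After 64 Affymetrix control probe sets were left out, 45037 probe sets were fitted with a mean per genotype with lmFit and eBayes in limma 3.58.1 under R 4.3.3 (3 residual and 0.771 prior degrees of freedom), with 95% intervals and Benjamini-Hochberg adjustment over all probe sets. The criterion (p up to 0.05, fold from 1.5 up) follows the study's text. Probe sets were named from the platform annotation. The fit was tested on simulated data. The members and lists were chosen with earlier results of these data known, and the lists come from general knowledge. Named were all members, up to 4 passing genes of each list per direction or otherwise its 2 with the highest mean, Atxn1l, and the 2 genes most like each of 3 members. Markers and controls are named beside them. Some genes of the lists are not analysed here. Array medians ran from 3.03 to 3.07, and the number of arrays limits the precision. As alternatives the arrays were weighted, centred on their medians or quantile normalized again, a robust fit with a variance trend was used, probe sets that were dim or prone to cross-hybridization were dropped, those of a gene were averaged, and further settings were the replicate number as a block, other criteria, and fits lacking each array. The p-values measure the spread between pools only.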

Additional observations from a re-analysis of the deposited data

How the results depend on the processing

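The count of probe sets of the 10 factors called higher, 0 as reported, was 2 with a variance trend and robust estimation, 2 with array weights, 2 without dim probe sets, 1 with median centring and 1 by the p alone, and lay between 0 and 1 on dropping single arrays. The count called lower, 0 as reported, was 0 to 1 with 1 array left out. The call by the p alone was the dim Fli1 probe set, and the lower calls were Lmo2 (-0.63) and Runx1 1452531_at (-0.60). The other gained calls were those of the brighter Fli1 probe set (0.71 with a variance trend, 0.63 with array weights, 0.71 with median centring, 0.71 without dim probe sets and 0.88 without WT replicate 3) and of Runx1 1422864_at (0.77, 0.80 and 0.77 with the trend, the weights and without dim probe sets, and 1.18 without null replicate 2). Without dim probe sets 12936 were tested, which changes the moderated variance. Calls over all probe sets, in either direction, were 1074 of 45037 as reported and also 1074 with median centring. They were 1337 with the variance trend, 1605 with array weights and 1236 of the 12936 without dim probe sets. The gained calls of the 10 factors thus came in settings where calls mostly rose over the whole array. Other causes were not tested. The sign of Tal1 turned with array weights (-0.20) and without the first null array (leave-one-out range -0.13 to 0.63). The median difference of the 21 probe sets ran from -0.0047 to 0.010 with 1 array left out, and was -0.15 without dim probe sets, -0.04 with the probe sets of a gene averaged and -0.0071 with array weights. With a lone null array left, that array is assumed to vary like the others.

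The count of network probe sets called, 7 as reported, was 2 genes after averaging the probe sets of a gene, 13 by the p alone and 0 at an adjusted p under 0.05, and lay between 2 and 12 on dropping single arrays (2 without WT replicate 3, 4 without null replicate 1 and 12 without null replicate 2). With the replicate number as a block it was 4, and Crebbp (-0.94), Ets2 (-1.05), Hhex (-0.73) and Prdm16 (0.73) were not called. The numbers of the labels document no pairing: deviations of same-numbered arrays correlated at -0.03 and -0.26 across probe sets. The block changed no call of the 10 factors, but moved the brightest probe sets of Lyl1 (-0.39), Mecom (-0.07) and Gfi1 (0.04), and those of Gata2 1428816_a_at (-0.08) and Hlf 1434735_at (0.06) by over 1.5 times. Only WT HSCs have a replicate 3, so the block gives the same differences as leaving out WT replicate 3. These moves are therefore not a separate result.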
